A study of Mus musculus with 10 samples.

Results

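The MHC class I genes and the genes that load class I molecules with peptide were followed in RNA seq of the microglia fraction from mouse cortex. The 9 genes are H2-K1 and H2-D1 (classical class I heavy chains), B2m (the light chain beta-2-microglobulin), Tap1 and Tap2 (which pair to form the peptide transporter), Tapbp (tapasin, which holds an empty class I molecule at the transporter), Psmb8 and Psmb9 (catalytic subunits of the immunoproteasome) and Nlrc5 (the transactivator of class I genes). They were chosen by symbol for their place in the pathway, with earlier results of these data known. All 9 were found among the 24421 gene symbols of the count files.

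Class I molecules show peptides from proteins made inside a cell to CD8 T cells and to natural killer cells. The proteasome cuts proteins into peptides, and in cells exposed to interferon the immunoproteasome subunits take the places of the constitutive ones. TAP carries the peptides into the endoplasmic reticulum, where tapasin, calreticulin and ERp57 hold the heavy chain and its light chain until a peptide binds, and ERAP1 trims peptides that are too long. NLRC5 and the RFX factors act on a conserved block of promoter elements, while NF-kappaB and interferon regulatory factors act on elements further upstream. Microglia at rest carry little class I, and microglia around amyloid plaques are known for higher levels.

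All mice were 9 months old, and each library is a pool of 2 mice. The groups were WT (n = 3 libraries), APP/PS1 (n = 4) and APP/PS1+N-AS (n = 3). APP/PS1 mice over-express human hAPP695swe and a mutant presenilin-1 from transgenes, and the sources used here do not give the promoter of each. N-AS is N-acetyl sphingosine, which the third group received subcutaneously at 30 mg/kg each day for 8 weeks from 7 months of age. The labels name the comparator only as APP/PS1, and the study describes it as injected with vehicle. Cells were separated from papain-digested cortex on a density gradient without a sort, so each library is a bulk sample in which fewer cells of a type and less RNA per cell cannot be told apart. Nothing in the labels says that libraries with 1 number were handled together.

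The files hold raw read counts per gene, and the total was 8805804 to 19432075 counts a library. Levels are CPM, the usual depth-scaled unit of read counts, with totals adjusted by edgeR's TMM factors. Fold changes and adjusted p-values come from edgeR's quasi-likelihood test in one model of the 3 groups, with Benjamini-Hochberg adjustment over the 18727 genes that passed a filter on low counts. A gene was called at an adjusted p under 0.05. All 9 class I genes passed the filter. The 10 libraries are the replicates, and the p-values measure the spread between these pools.

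Several libraries went against the described sex or stood apart from their group. The study states that male mice were used, yet Xist, the RNA of the inactive X chromosome, was at 453 to 579 CPM in the 4 APP/PS1 libraries and at 463 and 469 CPM in N-AS replicates 1 and 2. It was at 1.59 to 4.4 CPM in the WT libraries and in N-AS replicate 3. The 4 Y-linked genes summed to between 177 and 197 CPM in WT. In APP/PS1 the sum ran from 0.619 to 57.0 CPM, and with N-AS from 31.0 to 176 CPM. Presence of Xist and genotype therefore cannot be told apart between WT and APP/PS1.

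The labelled cell type was present, with all 14 microglia markers detected in each group, and the level of these markers differed between the groups. The summed level of the 14 ran from 854 to 1250 CPM in WT. It was between 2670 and 3380 CPM in APP/PS1, and N-AS libraries held 1650 to 2130 CPM. Of these, 12 were called higher in APP/PS1 than in WT, all but P2ry12 and Tmem119. RNA of other cells was also present: neuron markers summed to 1670 to 5340 CPM in WT, with the highest value in WT replicate 3, and to 2160 to 3120 CPM elsewhere. WT replicate 3 had the lowest endothelial sum, 696 CPM against 1340 to 1870 CPM in the other 9 libraries. Microglia and endothelial cells both express class I.

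Reference sequence upstream of the class I genes is shown because H2-K1, H2-D1 and B2m, the most abundant of the 9 genes, are the textbook bearers of these shared elements. The windows are from the RefSeq table of GRCm38.p6, an assembly of the mm10 build used for the counts, and hold bases before the RefSeq start. Of the 9 genes, 7 had an entry, and the first entry of a gene was used. Nlrc5 and Tap2 had none. The letters searched on both strands of 250 bases were GGGATTCCC (a kappaB core), AANNGAAA (a pair of half-sites for interferon regulatory factors), TGACG (the core of the X2 box) and CCAAT (the core of the Y box). They were picked after the sequences had been read, do not overlap each other in the windows shown, and are in capitals on either strand. H2-K1 (chr17:34000348-34000597, minus strand) and B2m (chr2:122147437-122147685, plus strand) are given as whole windows.
H2-K1: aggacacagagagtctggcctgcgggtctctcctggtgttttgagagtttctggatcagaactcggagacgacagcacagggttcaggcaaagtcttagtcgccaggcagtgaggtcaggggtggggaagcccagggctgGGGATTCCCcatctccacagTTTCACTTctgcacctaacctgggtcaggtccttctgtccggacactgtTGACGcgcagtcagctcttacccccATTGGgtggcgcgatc
B2m: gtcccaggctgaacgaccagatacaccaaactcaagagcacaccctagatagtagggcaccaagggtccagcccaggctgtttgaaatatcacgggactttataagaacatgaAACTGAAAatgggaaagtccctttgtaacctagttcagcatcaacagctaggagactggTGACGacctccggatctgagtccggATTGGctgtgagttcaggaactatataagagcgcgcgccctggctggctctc

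The 2 heavy chain genes carry nearly the same upstream block. Over 190 bases aligned without gaps, the H2-K1 and H2-D1 windows were identical at 166, or 87.4%. The stretch from the kappaB core to the interferon response letters lies at chr17:34000430-34000457 (minus strand) for H2-K1. For H2-D1 it lies at chr17:35262924-35262951 (plus strand). Upstream here means before the RefSeq start. In GENCODE M21, used for the gene positions given below, H2-D1 starts at chr17:35262730. The H2-D1 stretches shown here and in the next paragraph therefore lie inside its GENCODE span.
H2-K1 upstream element: GGGATTCCCcatctccacagTTTCACTT
H2-D1 upstream element: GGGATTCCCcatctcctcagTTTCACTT

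The stretch from the X2 core to the Y box core was 30 bases long in H2-K1 (chr17:34000359-34000388), H2-D1 (chr17:35262993-35263022) and B2m (chr2:122147609-122147638), although the letters between the boxes differ.
H2-K1 X2 to Y: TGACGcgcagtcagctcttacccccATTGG
H2-D1 X2 to Y: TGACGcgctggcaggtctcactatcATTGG
B2m X2 to Y: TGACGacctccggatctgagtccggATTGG

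Tap1 and Psmb9 are read in opposite directions from starts 225 bases apart. The interval holds a CCAAT and 1 TGACG, and the TGACG is shown with its neighbours at chr17:34187462-34187482 on the strand of Tap1.
Tap1 and Psmb9 interval: gagacaggTGACGacagaggg

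Across all 32851 windows of the table, the kappaB core was in 0.301%, the interferon response letters in 21.3%, the X2 core in 17.8% and the Y box core in 33.8%. Among the 7 class I genes with an entry these were in 2, 3, 5 and 6 windows. The windows of Tap1 and Psmb9 overlap, and their X2 and Y box letters are the same sites, counted for both genes. Since the letters were picked after these sequences had been read, the counts are a description and not a test. The 4 motifs occurred together in 0.0122% of windows, among them those of H2-K1 and H2-D1. The Psmb8 window held none of these letters and that of Tapbp only CCAAT.

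APP/PS1 libraries had more RNA of every class I gene than WT libraries, by 1.36- to 2.88-fold in the fit. B2m and Psmb8 were called higher, which is 2 of 9 genes, where 2.67% of all 18727 genes were called higher. The other 7 missed the threshold. At an unadjusted p under 0.05, 7 of the 9 were higher and 0 lower, while 3221 of all 18727 genes passed in either direction. DESeq2 called 4 of the 9 higher (B2m, H2-D1, H2-K1 and Psmb8), and 4.6% of all genes. For 8 of the 9 genes each APP/PS1 library lay above each WT library, all but Tap2, against 8.15% of all genes. The median log2 fold change of the 9 genes was 1.14, and that of all genes tested was -0.07. With the Y-linked level as a covariate edgeR called none of the 9 and their median was 0.48, and none was called without WT replicate 1 or without APP/PS1 replicate 2, 3 or 4.

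**Figure D1:**
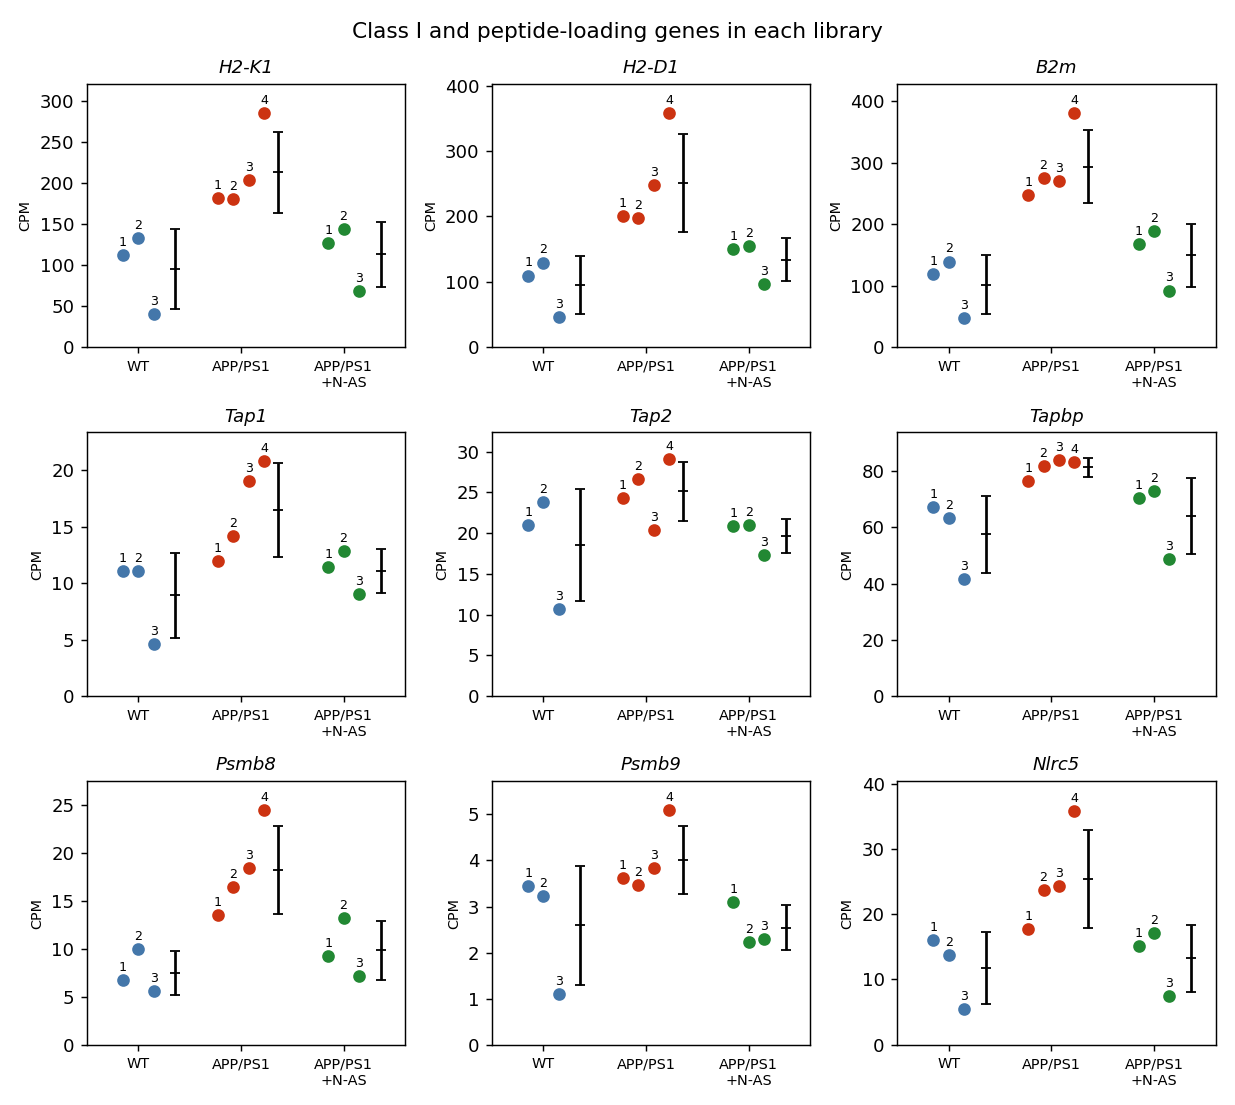
CPM of the 9 genes (y axis, linear, from 0) in WT, APP/PS1 and APP/PS1+N-AS libraries (x axis). Each point is a library, with its replicate number, and the bars give the mean ± SD. WT replicate 3 is the lowest point in every panel, and APP/PS1 replicate 4 is the highest in every panel but that of Tapbp.

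The heavy chains and their light chain were the most abundant members. H2-K1 (ENSMUSG00000061232.16, mm10 chr17:33996017-34000347, minus strand) was at 112.6, 133.7 and 40.88 CPM in WT, at 182.5, 181.0, 204.1 and 285.6 CPM in APP/PS1, and at 127.6, 144.0 and 67.97 CPM with N-AS. Replicate 3 of both WT and N-AS fell well under its group, and APP/PS1 overlapped neither of the other groups. H2-K1 differed between APP/PS1 and WT by 1.16 ± 0.39 on the log2 scale (SE), with an adjusted p of 0.149.

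H2-D1 (ENSMUSG00000073411.11, chr17:35262730-35267499, plus strand) was at 109.6, 129.5 and 45.37 CPM in WT, at 200.7, 198.2, 248.5 and 357.8 CPM in APP/PS1, and at 150.1, 155.1 and 96.56 CPM with N-AS. The pattern of libraries matched that of H2-K1. The log2 difference between APP/PS1 and WT was 1.41 ± 0.36, with an adjusted p of 0.0598. The 2 heavy chains are close in sequence, and how reads shared by both were counted is not given in the sources used here, so each value is uncertain to that extent. The ratio of H2-D1 to H2-K1 was 0.974, 0.969 and 1.11 in WT, 1.1, 1.09, 1.22 and 1.25 in APP/PS1, and 1.18, 1.08 and 1.42 with N-AS.

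B2m (ENSMUSG00000060802.8, chr2:122147686-122153083, plus strand) encodes the chain that every class I heavy chain needs to fold. It was at 118.4, 139.3 and 47.68 CPM in WT, at 247.2, 274.5, 270.6 and 380.4 CPM in APP/PS1, and at 167.0, 188.8 and 92.13 CPM with N-AS. B2m rose by 1.53 ± 0.37 on the log2 scale in APP/PS1 against WT, 2.88-fold, with an adjusted p of 0.0468 and no overlap between the groups. B2m lies wholly inside Patl2 on the other strand, and whether counting used strand is not given in the sources used here.

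The transporter and its bridge to the heavy chain differed by less than the heavy chains, and none of the 3 genes was called. Tap1 (ENSMUSG00000037321.17, chr17:34187553-34197225) was at 11.05, 11.08 and 4.58 CPM in WT, at 11.91, 14.13, 19.06 and 20.8 CPM in APP/PS1, and at 11.4, 12.88 and 9.014 CPM with N-AS. Its log2 difference between APP/PS1 and WT was 0.91 ± 0.31 (adjusted p = 0.158), and APP/PS1 replicate 1 stood just above WT replicates 1 and 2. In GENCODE M21, whose starts differ from the RefSeq starts used above, Tap1 shares 212 bases with Psmb9 on the other strand.

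Tap2 (ENSMUSG00000024339.12, chr17:34203527-34216321) was at 21.04, 23.77 and 10.7 CPM in WT, at 24.34, 26.61, 20.43 and 29.04 CPM in APP/PS1, and at 20.82, 20.99 and 17.29 CPM with N-AS. The WT and APP/PS1 ranges overlapped, and the log2 difference was 0.45 ± 0.24 (adjusted p = 0.39). Tapbp (ENSMUSG00000024308.15, chr17:33915899-33929292) was at 67.27, 63.52 and 41.75 CPM in WT, at 76.64, 81.89, 84.03 and 83.17 CPM in APP/PS1, and at 70.43, 73.16 and 48.61 CPM with N-AS. APP/PS1 lay above WT by 0.50 ± 0.19 (adjusted p = 0.197) and the APP/PS1 libraries lay close together, with a mean of 81.4 ± 3.31 CPM (SD, n = 4). Tapbp overlaps Zbtb22 on its own strand over 3422 bases.

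Psmb8 (ENSMUSG00000024338.15, chr17:34197721-34201454), the LMP7 subunit, was at 6.775, 10.03 and 5.641 CPM in WT, at 13.55, 16.53, 18.45 and 24.52 CPM in APP/PS1, and at 9.224, 13.25 and 7.167 CPM with N-AS. It rose by 1.29 ± 0.28 on the log2 scale in APP/PS1 against WT, 2.44-fold, with an adjusted p of 0.0331. Psmb8 and B2m were the 2 genes called.

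Psmb9 (ENSMUSG00000096727.3, chr17:34181987-34187764, minus strand), the LMP2 subunit, was the scarcest member, with 23 to 107 reads a library. It was at 3.447, 3.219 and 1.109 CPM in WT, at 3.625, 3.471, 3.826 and 5.094 CPM in APP/PS1, and at 3.097, 2.226 and 2.29 CPM with N-AS. The lowest APP/PS1 library and the highest WT library were nearly level, and the log2 difference was 0.66 ± 0.37 (adjusted p = 0.408).

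Nlrc5 (ENSMUSG00000074151.13, chr8:94434356-94527272, plus strand) is the regulator among the 9. Its level was 16.05, 13.68 and 5.545 CPM in WT, 17.78, 23.63, 24.39 and 35.85 CPM in APP/PS1, and 15.15, 17.12 and 7.462 CPM with N-AS. APP/PS1 replicate 1 was close to WT replicate 1, and the other 3 APP/PS1 libraries were clearly higher. The log2 difference between APP/PS1 and WT was 1.14 ± 0.39 (adjusted p = 0.158).

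Levels of different genes were compared per kilobase of the principal transcript in GENCODE M21. On that scale the order of mean levels over the 10 libraries ran B2m, H2-K1, H2-D1, Tapbp, Psmb8, Tap2, Tap1, Nlrc5 and Psmb9. B2m was at 118 ± 55.8 CPM per kilobase in WT (SD, n = 3), 341 ± 69.0 in APP/PS1 (n = 4) and 174 ± 59.0 with N-AS (n = 3). H2-K1 was at 59.1 ± 30.0, 132 ± 30.5 and 69.9 ± 24.7 CPM per kilobase in the same groups, and Psmb9 at 1.92 ± 0.95, 2.96 ± 0.55 and 1.88 ± 0.36. B2m was above H2-K1, H2-D1 above Tapbp, Tapbp above Psmb8 and Tap1 above Nlrc5 in all 10 libraries. H2-K1 was above H2-D1 and Tap2 above Tap1 in 9 of 10 each, with the exceptions in an N-AS and an APP/PS1 library. Psmb8 was above Tap2 in 6 of 10 and Nlrc5 above Psmb9 in 4 of 10. Psmb8 was above Tap2 in 4 of 4 APP/PS1 libraries and in 1 of 3 libraries of each other group. Per kilobase, the ratio of B2m to the sum of H2-K1 and H2-D1 lay between 1.12 and 1.18 in WT. It lay between 1.28 and 1.55 in APP/PS1 and between 1.22 and 1.35 with N-AS, so that WT overlapped neither group.

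N-AS-treated APP/PS1 libraries had lower levels of all 9 genes than APP/PS1 libraries, by 1.27- to 1.96-fold in the fit. None passed the adjusted threshold, and no gene of the 18727 was called lower in that comparison by edgeR (0%). At an unadjusted p under 0.05, 5 of the 9 were lower (H2-K1, H2-D1, B2m, Nlrc5 and Psmb8), where 4.05% of all genes were. DESeq2 called none of the 8 it gave an adjusted p for and left Psmb9 without one, and it called 0.304% of all genes lower. For 7 of the 9, all but Tap1 and Tap2, every N-AS library lay under every APP/PS1 library, against 6.46% of all genes. This comparison and the one before share the 4 APP/PS1 libraries.

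B2m showed the largest difference with N-AS, -0.97 ± 0.36 on the log2 scale (unadjusted p = 0.0199 and adjusted p = 0.517 by edgeR). Nlrc5 was at -0.94 ± 0.38, H2-K1 at -0.91 ± 0.38, H2-D1 at -0.91 ± 0.35 and Psmb8 at -0.89 ± 0.28, with adjusted p-values of 0.531, 0.535, 0.52 and 0.494. Psmb9 was at -0.66 ± 0.37, Tap1 at -0.57 ± 0.31, Tap2 at -0.35 ± 0.24 and Tapbp at -0.34 ± 0.19 (adjusted p from 0.618 to 0.702). The median was -0.89, and that of all genes was -0.01.

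**Figure D2:**
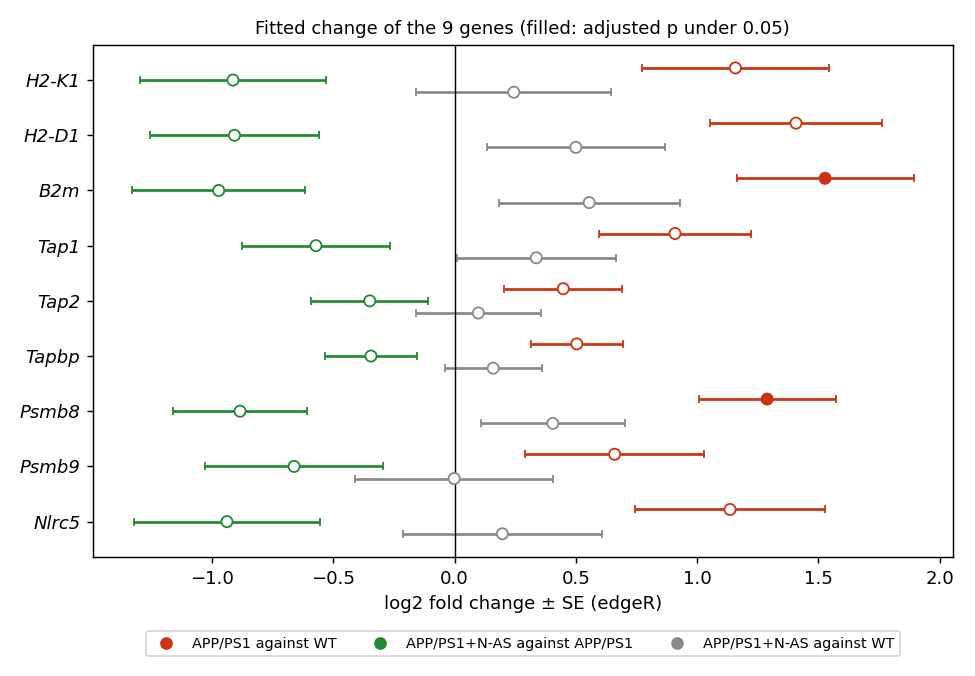
Log2 fold change (x axis) with its SE for each of the 9 genes (y axis) in the 3 comparisons, from the edgeR fit. Filled points passed an adjusted p of 0.05. The red points lie from 0.45 to 1.53, the green points from -0.97 to -0.34 and the grey points from -0.002 to 0.55.

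Between N-AS-treated APP/PS1 and WT libraries the 9 genes differed by -0.002 (Psmb9) to 0.55 (B2m) on the log2 scale, with a median of 0.24. None was called, at an unadjusted p under 0.05 none passed either, and DESeq2 called none. In this comparison edgeR called 0.187% of all genes and DESeq2 1% in either direction. No member separated the 2 groups, while 4.9% of all genes were higher in every N-AS library. The SE of these differences ran from 0.20 to 0.41.

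Library numbers in the labels run from 1 to 6 and from 7 to 10, and replicate 3 of each group together with APP/PS1 replicate 4 falls in the second run. No label says that the runs are batches. Gene symbols without a read numbered 837 to 1740 in the libraries from 7 to 10. In those from 1 to 6 they numbered 2940 to 3985, except in WT replicate 1, which had 566 and the lowest total count. On this measure WT replicate 1 was not like the rest of its run, and the cause was not tested. Taken as differences of mean log2 CPM, the median of the 9 genes between APP/PS1 and WT was 1.19 over all libraries, 0.47 within numbers 1 to 6 (2 against 2) and 2.09 within 7 to 10 (2 against 1). All 9 were higher in APP/PS1 in each. Between APP/PS1+N-AS and APP/PS1 the median was -0.89 over all, -0.39 within 1 to 6 and -1.55 within 7 to 10 (1 against 2). All 9 were lower in each. Between N-AS-treated APP/PS1 and WT it was 0.34, 0.14 and 0.73, with 9, 7 and 9 genes higher. The signs of the first 2 comparisons held in both runs, with larger sizes in the second. In that second run Xist was at 579 and 533 CPM in the 2 APP/PS1 libraries. It was at 1.59 CPM in the WT library and 2.14 CPM in the N-AS library. Within 7 to 10, presence of Xist and group therefore cannot be told apart in either of these comparisons.

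The libraries that stood apart carried much of these sizes. Without WT replicate 3 the median difference between APP/PS1 and WT was 0.73, and edgeR called B2m alone. Without N-AS replicate 3, the N-AS library without Xist, the median against APP/PS1 was -0.61 with all 9 genes lower. Without WT replicate 3 the median between N-AS-treated APP/PS1 and WT was -0.05, and 3 of the 9 genes were higher.

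Microglia markers moved in the same direction as the class I genes. The mean log2 CPM of the 14 markers was 1.58 higher in APP/PS1 than in WT, and that of the 9 class I genes was 1.07 higher. Relative to the markers, class I was 0.51 lower in APP/PS1 than in WT over all libraries, 1.16 lower within library numbers 1 to 6 and 0.71 higher within 7 to 10, so the sign turned between the runs. In the edgeR fit the single markers differed by 0.36 (P2ry12) to 3.40 (Tyrobp) on the log2 scale, with Tmem119 at 0.50. The sign of class I relative to microglia markers thus also depends on the markers taken. For APP/PS1+N-AS against APP/PS1, class I relative to the markers differed by -0.12 over all. It differed by 0.06 within 1 to 6 and by -0.38 within 7 to 10. With the marker mean as a covariate, edgeR called none of the 9 genes in any comparison, while their median log2 fold change between APP/PS1 and WT was 1.97, larger than the 1.14 without it. The marker mean did not overlap between the groups, at 5.298 to 5.872 in WT, 6.246 to 6.695 with N-AS and 7.027 to 7.352 in APP/PS1. That fit therefore cannot tell marker level apart from group.

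WT replicate 3 broke the shared movement. Its microglia markers averaged 5.87 on the log2 CPM scale, the highest of the WT libraries, while its class I genes averaged 3.65, the lowest of all 10. Its endothelial markers averaged 5.62, and those of the other libraries averaged up to 7.06. The difference between class I and endothelial markers was -1.97 in WT replicate 3 and -2.04 and -2.15 in WT replicates 1 and 2. It was -1.43 to -0.88 in APP/PS1 and -2.25 to -1.56 with N-AS. None of the 10 endothelial markers was called in any comparison by edgeR or DESeq2, nor was 1 at an unadjusted p under 0.05. The part of these cell types in the class I values was not tested beyond these measurements.

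**Figure D3:**
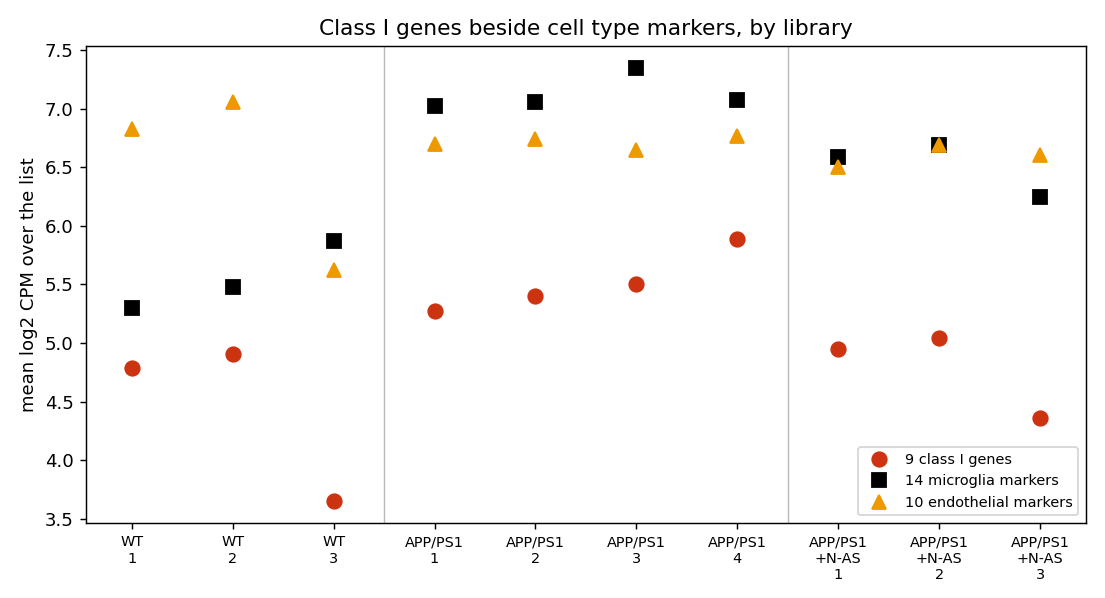
Mean log2 CPM (y axis) of the 9 class I genes, 14 microglia markers and 10 endothelial markers in each library (x axis, group and replicate number). Class I and endothelial points drop together in WT replicate 3, where microglia markers do not.

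Lymphocytes also carry class I. The list of CD8 T and NK markers had a summed level from 42.6 to 104 CPM in WT, from 70.8 to 161 CPM in APP/PS1 and from 66.4 to 106 CPM with N-AS. Of the 8 tested, 0 were called in any comparison by edgeR or, where it gave an adjusted p, by DESeq2, and 0 passed an unadjusted p of 0.05. Cd3d made up most of that sum, at 68.4 ± 29.3 CPM in WT and 84.4 ± 44.2 CPM in APP/PS1, and Cd8a was at 1.67 ± 0.92 and 2.93 ± 0.12 CPM. B cell markers summed to at most 6.89 CPM in any library. Neutrophil markers reached 93.2 CPM in APP/PS1 replicate 3 and at most 17.0 CPM elsewhere, while the summed class I level of that library, 893 CPM, was inside its group's 778 to 1222 CPM. Of the oligodendrocyte markers Cnp, Ermn and Opalin were called lower in APP/PS1 than in WT, and of the 10 astrocyte markers Gfap was called higher, while 7 of the 10 lay lower and the list's median log2 difference was -0.19. The part of these cells in the class I values was not tested.

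The other class I heavy chains, which include the H2-Q, H2-T and H2-M series, mostly lay higher in APP/PS1 without a call. Of 20 listed, 19 were tested, 16 were higher than in WT and 3 lower, with a median log2 difference of 0.55. EdgeR called none, 7 were higher and 1 lower at an unadjusted p under 0.05, and DESeq2 called H2-L, H2-M3 and H2-Q1. H2-M3, which presents formylated peptides, was at 10.98 ± 1.85 CPM in APP/PS1 (SD, n = 4) and 5.43 ± 1.87 CPM in WT (n = 3), a log2 difference of 1.04 ± 0.30 (adjusted p = 0.0875). H2-Q1 was at 10.8 ± 3.70 and 4.84 ± 1.81 CPM, a difference of 1.18 ± 0.34 (adjusted p = 0.0897). With N-AS, 17 of the 19 were lower than in APP/PS1 (median -0.51). H2-M3 differed by -0.90 ± 0.29 and H2-Q1 by -0.72 ± 0.33, and neither edgeR nor DESeq2 called a gene of the list, although 6 had no adjusted p in DESeq2 and 3 were lower at an unadjusted p under 0.05.

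Partners of assembly in the endoplasmic reticulum differed by smaller amounts. Of the 6 listed, 5 were higher in APP/PS1 than in WT, with a median of 0.39. EdgeR called none, 4 passed an unadjusted p of 0.05, and DESeq2 called Calr and Pdia3. Pdia3, which encodes ERp57, was at 0.49 ± 0.15 on the log2 scale (adjusted p = 0.106) and Erap1, the trimming peptidase, at 0.49 ± 0.17 (adjusted p = 0.172). With N-AS the median was -0.18, none was called by either tool or at an unadjusted p under 0.05, and Erap1 and Canx had the lowest adjusted p-values, 0.591 and 0.748.

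**Figure D4:**
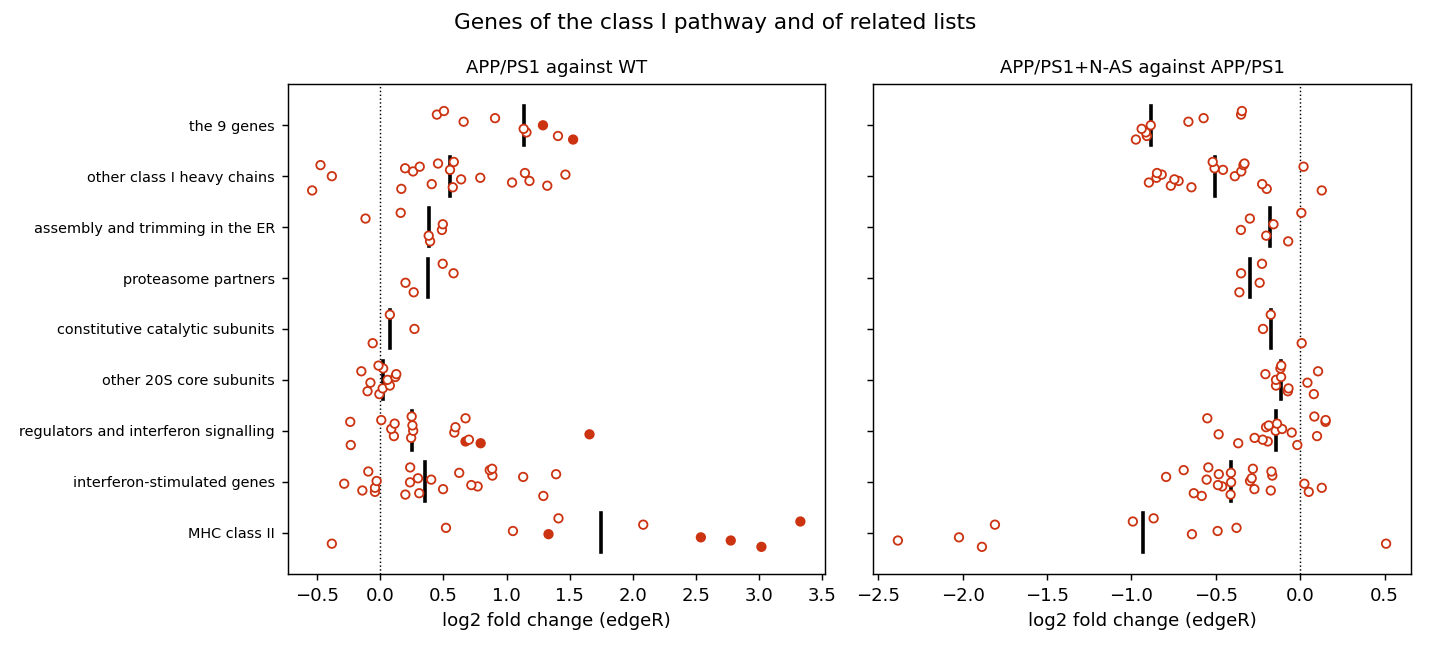
Log2 fold change (x axis, edgeR) of each tested gene of 9 lists (y axis) for APP/PS1 against WT (left) and APP/PS1+N-AS against APP/PS1 (right). Black bars are list medians and filled points passed an adjusted p of 0.05. The 9 class I genes have medians of 1.14 and -0.89, while the constitutive and other core proteasome subunits lie near 0.

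The constitutive proteasome subunits lay near the same level in the groups. Psmb5, Psmb6 and Psmb7, the catalytic subunits that Psmb8, Psmb9 and Psmb10 replace, differed between APP/PS1 and WT by -0.06 ± 0.29, 0.27 ± 0.19 and 0.07 ± 0.23 on the log2 scale. The other 11 subunits of the 20S core differed by -0.15 to 0.13. None of these 14 was called in any comparison or passed an unadjusted p of 0.05, by edgeR, and DESeq2 called none.

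Psmb10, the third inducible subunit, was at 9.23 ± 1.27 CPM in WT, 10.6 ± 0.61 CPM in APP/PS1 and 8.99 ± 1.01 CPM with N-AS, a log2 difference of 0.20 ± 0.15 between the first 2 (adjusted p = 0.554). The PA28 activator subunits Psme1 and Psme2 lay above the WT range in all 4 APP/PS1 libraries, by 0.58 ± 0.16 and 0.49 ± 0.16 (adjusted p = 0.0852 and 0.146). Of the 4 proteasome partners edgeR called none in that comparison, DESeq2 called Psme1, and 2 passed an unadjusted p of 0.05. With N-AS all 4 were lower than in APP/PS1 by a median of 0.30, and none was called by either tool or passed an unadjusted p of 0.05.

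Within each library, the immunoproteasome subunit was divided by the constitutive subunit it replaces. The ratios per library are of CPM, and the log2 differences and tests are of CPM + 0.5. Psmb8 over Psmb5 was 1.24, 1.34 and 0.397 in WT, 1.32, 1.9, 2.45 and 2.77 in APP/PS1, and 1.16, 1.82 and 0.626 with N-AS. APP/PS1 replicate 1 lay between 2 WT libraries, so the ranges overlapped. On the log2 scale the ratio was 1.18 higher in APP/PS1 than in WT (exact permutation p = 0.0857, adjusted over 6 tests 0.343) and differed by -0.86 with N-AS (exact permutation p = 0.114, adjusted 0.343). The smallest p that 4 against 3 libraries allow is 0.0286, two-sided.

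Psmb9 over Psmb6 was 0.17, 0.115 and 0.0299 in WT, 0.116, 0.0995, 0.112 and 0.135 in APP/PS1, and 0.124, 0.072 and 0.069 with N-AS. Its log2 difference between APP/PS1 and WT was 0.33 (exact permutation p = 0.771) and with N-AS -0.34 (p = 0.229). The first was 0.43 with CPM + 0.1 and 0.13 with CPM + 2. Psmb10 over Psmb7 differed by 0.05 and -0.04 (exact permutation p = 0.914 and 0.857). WT replicate 3 had the lowest value of all 10 libraries in each of the 3 ratios, and without it the log2 differences between APP/PS1 and WT were 0.64, -0.30 and -0.23. Within library numbers 1 to 6 they were 0.30, -0.38 and -0.20, and within 7 to 10 they were 2.59, 1.66 and 0.59. The sign of the last 2 ratios thus turned between the runs. For N-AS against APP/PS1 they were -0.13, -0.12 and 0.18 within 1 to 6 and -1.97, -0.71 and -0.52 within 7 to 10.

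**Figure D5:**
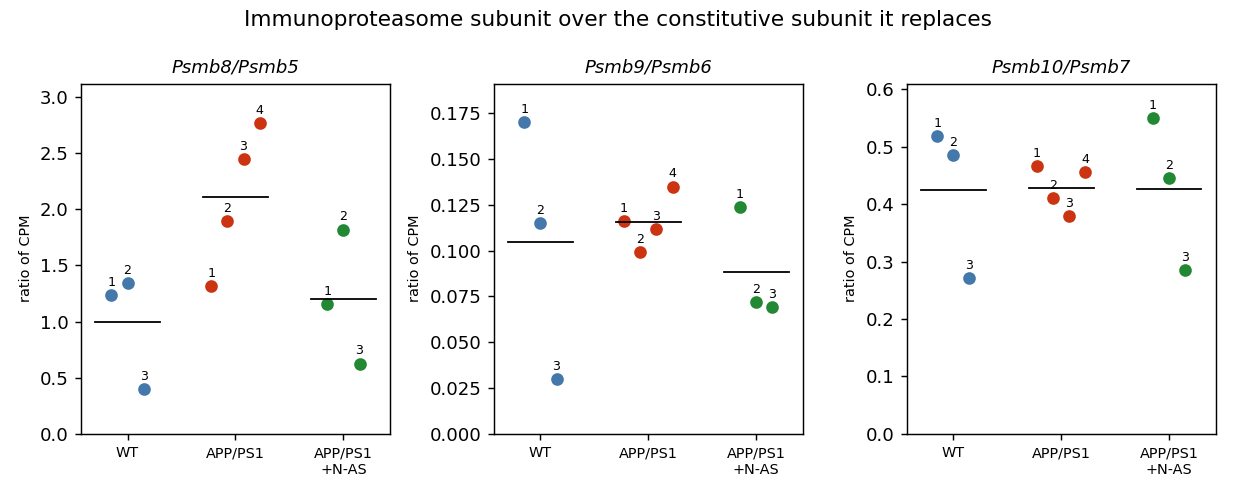
Ratio of the CPM of an immunoproteasome subunit to that of the constitutive subunit it replaces (y axis, from 0) in each library of the 3 groups (x axis), with replicate numbers and group means as lines. WT replicate 3 is the lowest point in all 3 panels.

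Among 17 regulators and interferon signalling genes, 3 rose in APP/PS1 against WT. Irf8, a factor of the myeloid lineage, was at 44.0 ± 11.1 CPM in APP/PS1 and 13.9 ± 1.16 CPM in WT, a log2 difference of 1.66 ± 0.30 (adjusted p = 0.0134). Ifngr1, the ligand-binding chain of the interferon gamma receptor, rose by 0.68 ± 0.13 (adjusted p = 0.02), and Ifnar2, a chain of the type I interferon receptor, by 0.80 ± 0.16 (adjusted p = 0.0215). The median of the 17 was 0.25, and DESeq2 called Nfkb1 and Ifngr2 in addition. With N-AS, 13 of the 17 were lower than in APP/PS1 with a median of -0.14, and neither tool called any. Ifnar2 differed by -0.37 ± 0.16 (unadjusted p = 0.0386) as the only one under 0.05. Against WT, N-AS-treated libraries were higher in 12 of the 17, and DESeq2 but not edgeR called Irf8.

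Interferon-stimulated genes that are no part of the pathway gave a median log2 difference of 0.36 between APP/PS1 and WT over 22 genes, with 16 higher. EdgeR called none, 9 were higher at an unadjusted p under 0.05, and DESeq2 called Bst2, Ifit2 and Oas1a. Ifit2 was at 0.72 ± 0.22 (adjusted p = 0.112) and Rtp4 at 0.87 ± 0.28 (adjusted p = 0.129). With N-AS 19 were lower than in APP/PS1, with a median of -0.41, and neither tool called any, while 3 passed an unadjusted p of 0.05.

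MHC class II genes present peptides from outside the cell. Of 10, 5 rose in APP/PS1 against WT by edgeR and 8 by DESeq2. The 5 were H2-Oa (3.33 ± 0.50), Cd74 (3.02 ± 0.49), H2-Aa (2.78 ± 0.53), H2-Ab1 (2.54 ± 0.49) and H2-DMa (1.33 ± 0.31), as log2 differences with SE (edgeR adjusted p = 0.005, 0.00768, 0.0184, 0.0188 and 0.0408). With N-AS 9 of the 10 were lower than in APP/PS1. EdgeR called none, 5 were lower and 1 higher at an unadjusted p under 0.05, and DESeq2 called Cd74, H2-Aa and H2-Ab1 lower and left 3 without an adjusted p. H2-Aa differed by -2.38 ± 0.51 and H2-Ab1 by -2.02 ± 0.47 (adjusted p = 0.478 for both by edgeR).

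The 9 genes followed each other closely over the 10 libraries. Pearson's r of log2 CPM between 2 members ran from 0.727 (Psmb8 and Psmb9) to 0.988 (H2-D1 and B2m) over 36 pairs, with a median of 0.917. Each gene's r with the mean of the other 8 was 0.894 (Psmb8) to 0.994 (H2-K1). The genes outside the 9 with the pattern most like their mean were H2-Q8 (r = 0.989), Myo1e, a myosin motor (0.985), Ifi27, an interferon-stimulated gene (0.981), Capg, an actin-capping protein (0.98), and H2-L (0.98). H2-Q8 ran from 4.63 to 53.8 CPM, and H2-L from 21.1 to 177 CPM. H2-Q8 and H2-L are close in sequence to H2-K1 and H2-D1, so reads that fit more than 1 of them can enter these values. These r are descriptions over 10 points that share group, depth and cell makeup.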

How the data were processed

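RNA was sequenced from 10 libraries of cortical microglia, each a pool of 2 mice. After ribosomal RNA depletion and stranded library preparation, the authors used TopHat on mm10 (both from the submitters' processing notes, which also list edgeR) and deposited raw counts of reads per gene. Versions, annotation and the use of strand in counting are not given in the sources used here. Their later FPKM values and quantile normalization were not used. The 24481 lines held 24421 symbols, and the 103 lines that share 43 symbols were summed. Totals of 8805804 to 19432075 counts limit precision for genes with few reads, and reads amplified by PCR are not independent molecules.

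Groups and replicate numbers came from the labels. The test on counts was that of edgeR 4.0.16, run under R 4.3.3 (filterByExpr, TMM, glmQLFit and glmQLFTest on 3 groups, no covariate), with Benjamini-Hochberg adjustment over 18727 genes and a threshold of 0.05. SE is the size of the log2 fold change over the root of F. Log2 CPM used a prior count of 2, ratios CPM + 0.5, with two-sided exact permutation tests over libraries adjusted over 6. DESeq2 1.42.0 and limma 3.58.1 were alternatives. The edgeR step was tested on simulated data. Genes were placed with GENCODE M21, and promoter windows came from RefSeq (GRCm38.p6).

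The members, lists and tests were chosen with earlier results of these data known. Named are the 9 members, Psmb10 and the constitutive subunits, from each other list the genes past 0.05 (at most 6, otherwise the 2 of lowest adjusted p), the 5 genes most alike, and the genes that a count of 5 or fewer by another tool refers to, which were named after their values were seen. One gene that this rule names is not reported here. Xist and the Y-linked sum checked the labels. The lists were other class I heavy chains, endoplasmic reticulum partners, proteasome partners, 20S subunits, regulators, interferon-stimulated genes, MHC class II and cell type markers. Pericyte, border macrophage and monocyte markers had no call in any comparison by edgeR or, where it gave an adjusted p, by DESeq2, with 0, 0 and 1 lower at an unadjusted p under 0.05 in APP/PS1 against WT.

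Same-numbered libraries of APP/PS1+N-AS and APP/PS1 had r of 0.278, 0.142 and 0.309 between their deviations from the group means. Some differently numbered libraries correlated as much, APP/PS1 replicate 2 with N-AS replicate 1 at 0.197 and APP/PS1 replicate 4 with N-AS replicate 3 at 0.32. These r therefore do not show that the label numbers are pairs. The results above are unpaired, and a fit with the replicate number as a block was an alternative only. The replicate block left its count of called class I genes at 0.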

Additional observations from a re-analysis of the deposited data

How the results depend on the processing

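For APP/PS1 against WT, edgeR called 2 of the 9 class I genes. The count was 4 with DESeq2 and 7 at an unadjusted p under 0.05, which 3221 of all 18727 genes passed in either direction. It was 1 with only the 2 groups in the fit (Psmb8), and 0 with either the microglia marker mean or the Y-linked level as a covariate. Leaving out 1 library gave 0 to 1: none without WT replicate 1 or APP/PS1 replicate 2, 3 or 4, Psmb8 alone without WT replicate 2 or APP/PS1 replicate 1, and B2m alone without WT replicate 3. It was 3, with H2-D1, for total counts, a minimum of 10 counts, the library set as a covariate and limma-voom. With the replicate block 1 gene was called (B2m), although same-numbered libraries had r of -0.486, 0.441 and -0.010, so the numbers do not pair these groups. Of the 46 other pathway genes, 3 were called, and the count was 0 with the replicate block, 0 with each of those covariates, 6 with the library set, 11 with DESeq2, 5 with limma-voom, 21 unadjusted, and 0 to 4 with 1 library left out. The median of the 9 was 1.97 with the microglia covariate and 0.48 with the Y-linked one. Both covariates separate APP/PS1 from WT libraries without overlap, so these fits cannot tell them apart from genotype. The cause was not tested.

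For APP/PS1+N-AS against APP/PS1, 0 genes of either list were called by edgeR, DESeq2 or limma-voom. The same held under every other alternative except the unadjusted threshold, which passed 5 and 4. The replicate block left both at 0. For N-AS-treated APP/PS1 against WT, 0 other pathway genes were called, with 1 by DESeq2, 6 unadjusted and 0 to 1 with a library left out (1 without N-AS replicate 3), and the median was 0.83 with the microglia covariate. Reading each gene's fold change and the median under the covariates, filters and other tools was added after seeing the data.

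Over all 9 genes and these alternatives, the 171 fold changes of APP/PS1 against WT were above 0. The 171 of APP/PS1+N-AS against APP/PS1 were below 0. Of those of N-AS-treated APP/PS1 against WT, 149 were above 0 and 13 below. These fits reuse the same libraries and the 9 genes move together, so the counts are not independent results. No proteasome ratio was called under any alternative, but the number of libraries limits what these tests can show. The smallest exact permutation p is 0.0286 for 4 against 3 libraries, before adjustment over 6 tests. It is 0.1 for 3 against 3 and 0.25 over the same-numbered pairs, both above the threshold for a call. The absence of calls is therefore no evidence that the ratios are stable. Over the same-numbered pairs the replicate block gave Psmb8 to Psmb5 differences of 1.03 and -0.71. Psmb9, with 23 to 107 reads a library, had the fewest counts of the 9.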
